A study of Homo sapiens with 9 samples.

Results

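Lysosomes are the acidic compartments in which cells break down proteins, glycans and lipids, and 57 genes that build or control them were followed by RNA sequencing in 2 human prostate cancer cell lines. The 57 genes were taken by symbol from a list, and all of them were found among the 28216 genes of the count table. They comprise 3 transcription factors that regulate lysosomal genes, 9 membrane proteins, 12 proteases, 12 glycosidases, 5 sulfatases, 5 lipid-handling proteins, 8 components of the proton pump and 3 proteins that sort enzymes to the lysosome. PC3 cells (3 libraries) were grown in F12K medium with 10% serum and received no treatment. LNCaP cells of clone FCG were first held for 24 h in RPMI medium free of phenol red, with 10% charcoal-stripped serum, which is depleted of steroid hormones, and then received either 10 nM androgen for 48 h (3 libraries) or 0.01% ethanol as vehicle for 48 h (3 libraries). The androgen is dihydrotestosterone in the sample labels and the synthetic androgen R1881 in the study's text, and it is called androgen here.

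Newly made lysosomal enzymes receive mannose 6-phosphate in the Golgi apparatus and are carried by mannose 6-phosphate receptors to endosomes, where acidification by the proton pump (the V-ATPase) releases them. TFEB, TFE3 and MITF are related transcription factors that enter the nucleus when nutrients are scarce and bind CLEAR elements, short palindromes in the promoters of many lysosomal genes. LNCaP cells depend on androgen for growth, while PC3 cells grow without it.

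The libraries held 17397706 to 25640325 counts on genes. Most marker genes fitted the labels. Of 7 genes typical of LNCaP cells, 6 were at least 2-fold lower in PC3 cells in each comparison with LNCaP cells, and 1 was not lower. Mean KLK3 (prostate-specific antigen, a gene induced by androgen) was 575 CPM (counts per 1000000 counts) with vehicle, 4259.9 CPM with androgen and 0.320 CPM in PC3 cells. Of 8 genes typical of PC3 cells, 7 were high there, among them VIM (vimentin, 1212 CPM), while TGFBI was at 0.178 CPM. Their summed level in LNCaP libraries was 9.36 to 18.8 CPM, except in androgen-treated replicate 1, where it was 31.5 CPM. The 9 white blood cell markers summed to at most 0.947 CPM in any library. PC3 replicate 3 stood apart from the other PC3 libraries (mean chi-square per gene 31.5 and 54.4, against 11.6 between the other two), and the median coefficient of variation of the lysosome genes was 10.4% among PC3 libraries (52 genes), 3.35% among androgen-treated libraries (55 genes) and 3.17% among vehicle-treated libraries (55 genes). Nothing in the labels says that replicates came from separate cultures, so that the p-values measure only the spread between these libraries, and in bulk RNA a smaller number of expressing cells cannot be told apart from less RNA per cell.

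Expression of the lysosome genes spanned a wide range. Per kilobase of the canonical transcript, CD63 (a tetraspanin of late endosomes and lysosomes) was the highest of the 57 genes over the 9 libraries, with means of 478 ± 80.4 CPM per kb in PC3 cells, 270.3 ± 2.95 with androgen and 158 ± 5.02 with vehicle (SD, n = 3). CTSD (the aspartic protease cathepsin D) led the proteases at 135 ± 25.9, 174 ± 14.99 and 87.98 ± 2.35 CPM per kb in the same order. ASAH1 (acid ceramidase) was the highest lipid-handling gene over the 9 libraries at 22.9 ± 2.31, 147 ± 10.6 and 73.2 ± 2.22 CPM per kb, although in PC3 cells PPT1 (44.6 ± 2.13), LIPA and GM2A were higher. In the other role groups the highest genes over the 9 libraries, not in each cell group, were TFE3 (28.98 CPM per kb), the glucosylceramidase GBA2 (50.4), the heparan sulfatase SGSH (19.2), the proton pump accessory protein ATP6AP1 (77.5) and the mannose 6-phosphate receptor IGF2R (31.8). GBA2 is known as the non-lysosomal glucosylceramidase, and it is counted here only because its symbol is in the list. CTSS (cathepsin S, an enzyme of antigen-presenting cells) never exceeded 15 counts in a library and ATP6V0D2 (a pump subunit known from osteoclasts) never exceeded 21 counts. Of the 74-base stretches of the CTSD transcripts 21.4%, and of those of CLN3 23.2%, also lie in other annotated genes or elsewhere in the genome, so that their reads may be split. CTSS and ATP6V0D2 fell under the filter on low counts, and the other 55 genes were tested in all comparisons.

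Together the 57 genes took 0.624% to 0.634% of the counts in androgen-treated libraries, 0.536% to 0.538% in vehicle-treated libraries and 0.483% to 0.546% in PC3 libraries. The summed level of the proton pump genes was 435 to 452 CPM per kb with androgen, 324 to 333 with vehicle and 221 to 226 in PC3 cells, and these ranges did not overlap. The lipid-handling genes followed the same order, at 281 to 303, 216 to 217 and 151 to 163 CPM per kb, as did the sorting genes, at 89.5 to 96.5, 76.5 to 78.9 and 46.5 to 51.6. In contrast, the regulators summed to 41.5 to 53.1 CPM per kb in PC3 cells, above both the androgen-treated (30.1 to 32.5) and the vehicle-treated libraries (22.8 to 23.8). The membrane proteins were likewise highest in PC3 cells, at 610 to 810 against 570 to 573 with androgen and 401 to 414 with vehicle. So were the sulfatases, at 59.2 to 66.4, 47.6 to 48.7 and 36.6 to 37.7. For proteases and glycosidases the PC3 and androgen-treated ranges overlapped. Sums are led by their highest members, and PC3 replicate 3 held the highest sum of the 9 libraries in 5 of the 8 role groups.

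**Figure D1:**
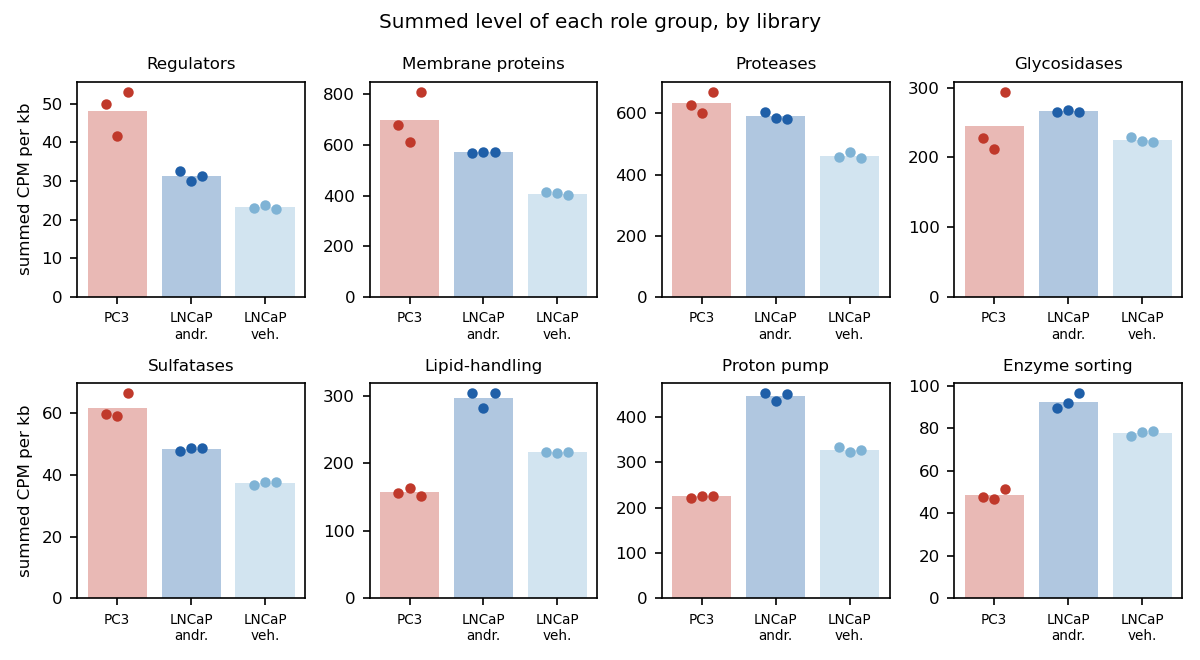
Summed level of the lysosome genes by role (CPM per kb of canonical transcript, vertical axis) in PC3, androgen-treated and vehicle-treated LNCaP cells. Points are libraries and bars their mean (n = 3). Proton pump, lipid-handling and sorting genes were highest with androgen and lowest in PC3 cells. Regulators, membrane proteins and sulfatases were highest in PC3 cells.

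Promoters of the lysosome genes were searched for the letters of the CLEAR element, since its binding factors are among the genes measured. RefSeq promoters (250 bases before to 50 bases after the start, build GRCh38.p14) were matched by symbol for 42 of the 57 genes. The core TCACGTGA, which reads the same on both strands, was present in 8 of the 42 (19.0%), against 0.98% of all 35116 promoters. The longer palindrome GTCACGTGAC, which contains the core, was present in 4 of the 42 (9.52%) and 0.353% of all promoters. The E-box CACGTG, the centre of both, was present in 14 of the 42 (33.3%) and 7.26% of all promoters. The 42 were counted per gene, with a match in any of its promoters, and the 35116 per promoter. These shares are therefore not in the same unit. Counted per gene, 227 of the genes tested with androgen had the core and 9097 did not. The 30 bases around the core are shown for 7 of the 8 genes that carry it. They read 5′ to 3′ on the strand of the gene, with the core in capitals.
MCOLN1: gggctaccgggTCACGTGAccgaggcacag
GAA: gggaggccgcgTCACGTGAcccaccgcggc
GALNS: caggcaccgcgTCACGTGAcccgccgctgg
IGF2R: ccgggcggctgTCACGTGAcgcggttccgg
LAMP1: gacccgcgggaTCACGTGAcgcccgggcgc
ATP6V0D1: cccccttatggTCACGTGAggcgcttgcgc
CTSA: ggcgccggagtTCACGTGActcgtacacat
The windows lie at chr19:7522598-7522627 (MCOLN1), chr17:80101493-80101522 (GAA), chr6:159969042-159969071 (IGF2R), chr13:113297199-113297228 (LAMP1) and chr20:45891298-45891327 (CTSA) on the plus strand, and at chr16:88857104-88857133 (GALNS) and chr16:67481199-67481228 (ATP6V0D1) on the minus strand. MCOLN1, GAA, GALNS and IGF2R carry the longer palindrome, and CLN3 is the gene with the core that is not shown.

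The first comparison asked how androgen altered the lysosome genes of LNCaP cells. The prevailing direction was upward and small. Of the 55 genes tested, 45 passed the test, of which 36 rose and 9 fell at an adjusted p under 0.05 (edgeR quasi-likelihood test, Benjamini-Hochberg over all genes), against 74.9% of all 11697 genes tested that passed, 37.1% rising and 37.8% falling. Their median log2 fold change was 0.34, while that of all genes was -0.01. Only 4 of the 55 genes also reached a 2-fold change, all upward, namely NEU1, ARSA, LGMN and ASAH1, whereas 14% of all genes tested did so (6.54% upward and 7.49% downward). In the following text a gene is called differentially expressed when it passed both thresholds, and rose or fell when it passed the adjusted p alone. All log2 fold changes are given with their standard error from 3 libraries a group. Libraries of the groups did not overlap for 77.9% of all genes tested (38.5% higher and 39.4% lower with androgen). Of the 55 lysosome genes, 35 lay higher and 9 lower in every androgen-treated library.

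NEU1 (lysosomal sialidase, chr6:31857659-31862905) was measured at 95.9, 89.9 and 92.1 CPM with androgen and 42.7, 42.4 and 43.5 CPM with vehicle in the 3 libraries of each group. The androgen-treated libraries all lay above the vehicle-treated ones, and the log2 fold change was 1.11 ± 0.05, adjusted p = 1.88e-10. LGMN (legumain, an asparaginyl endopeptidase that processes cathepsins, chr14:92703807-92748679) was at 202, 209 and 212 CPM with androgen and 94.5, 109 and 99.1 CPM with vehicle, again with no overlap (1.04 ± 0.05, adjusted p = 5.7e-10). ARSA (arylsulfatase A, which degrades sulfatides, chr22:50622754-50628173) was at 36.3, 40.1 and 35.3 CPM with androgen and 16.3, 18.5 and 17.6 CPM with vehicle and ASAH1 (acid ceramidase, chr8:18055992-18084998) at 428, 374 and 421 CPM with androgen and 209, 204 and 197 CPM with vehicle. Both were higher in every androgen-treated library, with log2 fold changes of 1.09 ± 0.07, adjusted p = 1.87e-08 and 1.01 ± 0.05, adjusted p = 1.62e-09. Gene positions are those of GENCODE 44 on GRCh38. The ASAH1 change was no longer 2-fold without androgen-treated replicate 1 (0.97) or 3 (0.99) or vehicle-treated replicate 2 (0.99) or 3 (0.97), nor the LGMN change without vehicle-treated replicate 1 (0.99).

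**Figure D2:**
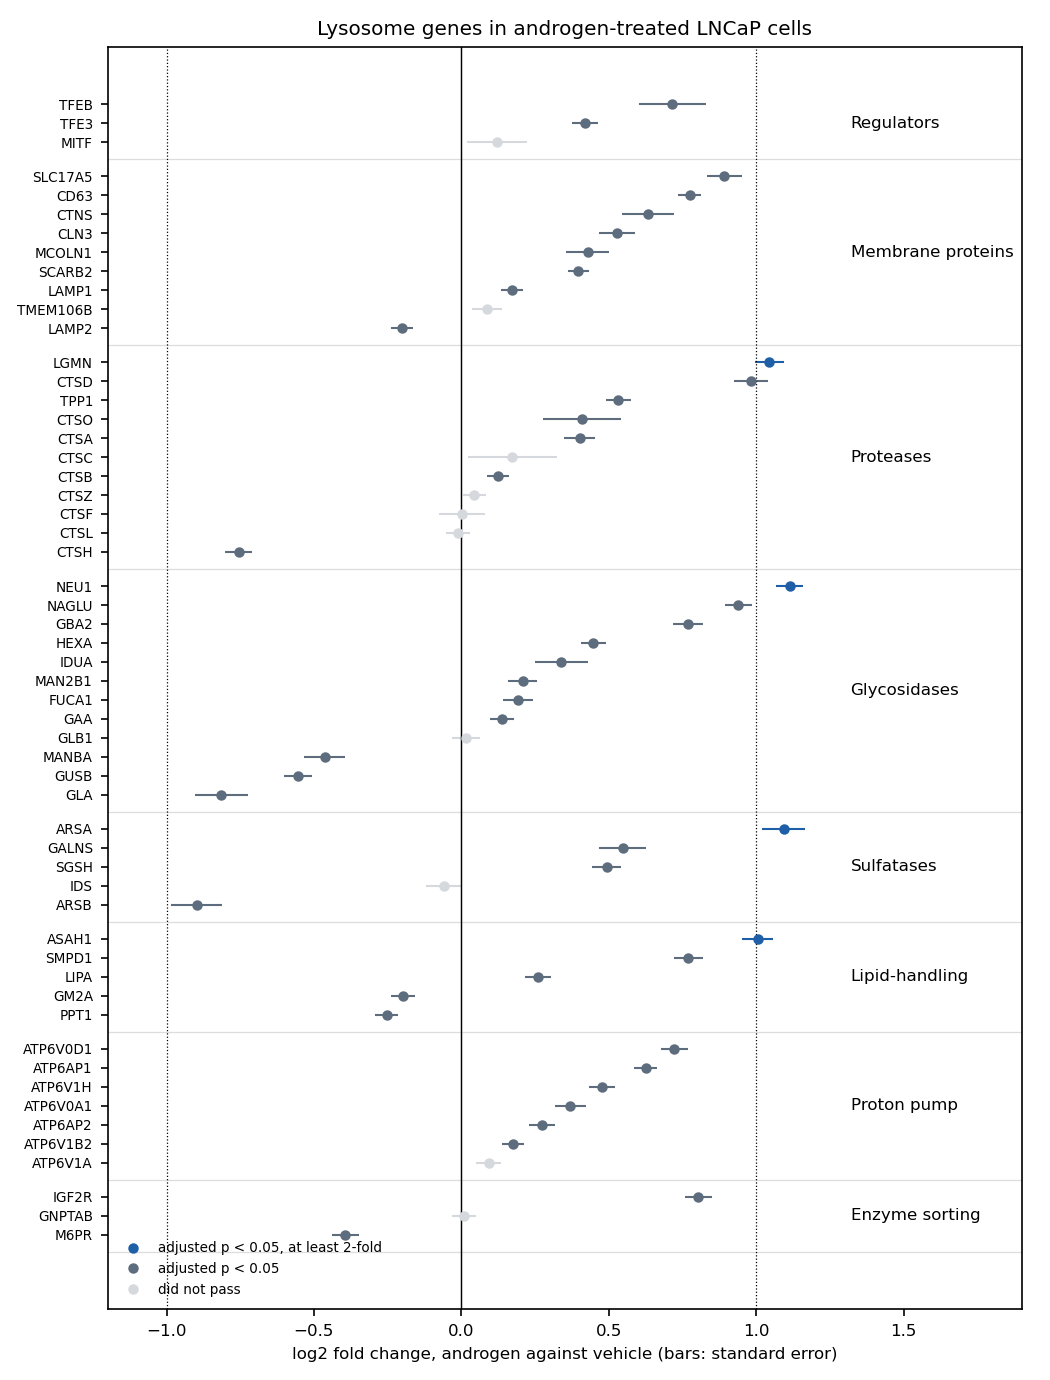
Log2 fold change of the 55 tested lysosome genes in androgen-treated against vehicle-treated LNCaP cells (horizontal axis, bars are standard errors, n = 3 libraries a group), ordered by size within each role group. The 4 differentially expressed genes in dark blue lie right of the dotted line at a 2-fold increase, 32 more in dark grey rose by less, 9 in dark grey fell by less than 2-fold and 10 in light grey did not pass the test.

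Among the regulators, TFEB was low in LNCaP cells, at 10.7, 9.35 and 9.40 CPM with androgen and 6.41, 6.16 and 5.45 CPM with vehicle, and rose by 0.72 ± 0.11, adjusted p = 7.56e-05. TFE3 was at 84.8, 79.6 and 83.5 CPM with androgen and 60.6, 63.4 and 61.7 CPM with vehicle and rose by 0.42 ± 0.04, adjusted p = 1.88e-06. In both genes every androgen-treated library exceeded every vehicle-treated one. MITF was at 10.1, 9.25 and 8.69 CPM with androgen and 8.78, 9.03 and 8.10 CPM with vehicle, where the groups overlapped and the test was not passed. Of the 9 membrane proteins, 7 rose, led by the sialic acid exporter SLC17A5 (0.89 ± 0.06, adjusted p = 1.78e-08) and by CD63 (0.77 ± 0.04, adjusted p = 1.11e-09). The cystine exporter CTNS (0.63), the membrane protein CLN3 (0.53), the lysosomal calcium channel MCOLN1 (0.43) and the glucocerebrosidase carrier SCARB2 (0.40) rose by log2 fold changes between 0.40 and 0.63. The abundant glycoproteins LAMP1 and LAMP2, which line the lysosomal membrane, moved apart, LAMP1 rising by 0.17 ± 0.04, adjusted p = 0.0011 and LAMP2 changing by -0.20 ± 0.04, adjusted p = 0.000258.

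Of the 11 tested proteases 6 rose and 1 fell. CTSD was at 391.8, 343 and 335 CPM with androgen and 184, 183 and 175 CPM with vehicle, without overlap, and its log2 fold change of 0.98 ± 0.06, adjusted p = 5.98e-09 fell just short of 2-fold. The tripeptidyl peptidase TPP1 rose by 0.53 and the carboxypeptidase CTSA by 0.40, while CTSH (cathepsin H, an aminopeptidase) fell from 184, 197 and 174 CPM with vehicle to 107, 111 and 109.7 CPM with androgen (-0.76 ± 0.05, adjusted p = 9.32e-09). CTSC, CTSF, CTSL and CTSZ did not pass the test. CTSL, a broad cysteine protease, was at 84.1, 80.4 and 81.9 CPM with androgen and 83.6, 81.1 and 83.9 CPM with vehicle. Glycosidases were split, with 8 risen and 3 fallen of 12. Besides NEU1, the heparan sulfate enzyme NAGLU (0.94 ± 0.05, adjusted p = 1.04e-09) and GBA2 (0.77 ± 0.05, adjusted p = 1.48e-08) rose most, whereas GLA (alpha-galactosidase A) fell from 25.7, 21.5 and 21.4 to 13.3, 12.1 and 13.4 CPM (-0.81 ± 0.09, adjusted p = 2.69e-06). The beta-glucuronidase GUSB (-0.55) and the beta-mannosidase MANBA (-0.46) also fell. The sulfatases ARSA and ARSB changed in opposite directions. ARSB (arylsulfatase B, which acts on dermatan and chondroitin sulfate) was at 9.24, 10.6 and 11.2 CPM with androgen and 19.3, 19.9 and 18.6 CPM with vehicle, lower in every androgen-treated library (-0.90 ± 0.09, adjusted p = 6.53e-07).

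Of the lipid-handling genes, SMPD1 (acid sphingomyelinase, 0.77 ± 0.05, adjusted p = 1.55e-08) and the cholesteryl ester hydrolase LIPA (0.26 ± 0.04, adjusted p = 0.000121) rose together with ASAH1, while the GM2 activator GM2A (-0.20) and the thioesterase PPT1 (-0.25) fell. Of the reads over PPT1, 55.98% with androgen and 36.3% with vehicle were antisense and not counted. Of the 7 tested proton pump genes, 6 rose. ATP6V0D1, a subunit of the membrane sector, was at 175, 159 and 169 CPM with androgen and 103, 99.2 and 103 CPM with vehicle (0.72 ± 0.05, adjusted p = 1.06e-08), and the accessory protein ATP6AP1 was at 238, 224 and 236 CPM with androgen and 152, 152 and 149 CPM with vehicle (0.63 ± 0.04, adjusted p = 1.13e-08). Libraries of the groups did not overlap in either gene. The catalytic subunit ATP6V1A was at 207, 197 and 217 CPM with androgen and 197, 189 and 197 CPM with vehicle and was the pump gene that did not pass the test. Among the sorting genes, the larger mannose 6-phosphate receptor IGF2R was at 690.0, 729.7 and 772 CPM with androgen and 409.9, 403 and 444 CPM with vehicle and rose (0.80 ± 0.05, adjusted p = 5.28e-09), whereas the smaller receptor M6PR was at 57.8, 57.6 and 59.2 CPM with androgen and 74.4, 80.03 and 75.3 CPM with vehicle and fell (-0.39 ± 0.04, adjusted p = 3.44e-06). For M6PR, 20.3% of the 74-base stretches of its transcripts also occur elsewhere in the genome, so that part of its reads could not be placed. All 8 genes with the CLEAR core in the promoter rose with androgen, compared with 18 of the 34 other lysosome genes with a promoter sequence. Over all genes tested that have a promoter sequence, 43.6% of the 227 with the core and 37.3% of the 9097 without it rose. In PC3 cells the 8 genes were divided, 4 higher and 3 lower at the adjusted p in each comparison. Over all genes tested, 36.9% of those with the core and 43.0% of those without it were higher in PC3 than in androgen-treated cells, and 36.6% and 42.7% were higher than in vehicle-treated cells. Differences between these shares were not tested.

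The other 2 comparisons asked how PC3 cells differ from LNCaP cells with and without androgen. They share the PC3 libraries, so that they are not independent of each other, and line, medium, serum and treatment cannot be told apart in them. Against androgen-treated LNCaP cells, 25 of the 55 genes were differentially expressed, 6 higher and 19 lower in PC3 cells, where 46% of all 12541 genes tested were differentially expressed (24% higher and 22.1% lower). Against vehicle-treated LNCaP cells the numbers were 24, of which 10 were higher and 14 lower, where 43.2% of 12686 genes tested were differentially expressed (22.2% higher and 21% lower). The total share was therefore near that of all genes in both comparisons. At the adjusted p alone, 17 genes were higher and 30 lower against androgen-treated cells, and 19 higher and 25 lower against vehicle-treated cells (in all 47 and 44 genes). Of all genes tested, 84% passed at the adjusted p in the former (42.9% higher and 41.1% lower) and 83.4% in the latter (42.6% and 40.8%). The median log2 fold change of the lysosome genes was -0.36 and -0.21, that of all genes 0.04 and 0.03. PC3 and LNCaP libraries did not overlap for 86.4% of all genes tested against androgen-treated and 85.9% against vehicle-treated cells. For the lysosome genes, every PC3 library was higher for 17 and 19 genes and lower for 29 and 26. Without PC3 replicate 3, 23 and 21 genes were differentially expressed. In both comparisons 6 genes were higher and 13 lower, no gene was differentially expressed in opposite directions, and 26 of the 57 genes, with the untested CTSS and ATP6V0D2 among them, were differentially expressed in none of the 3 comparisons.

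**Figure D3:**
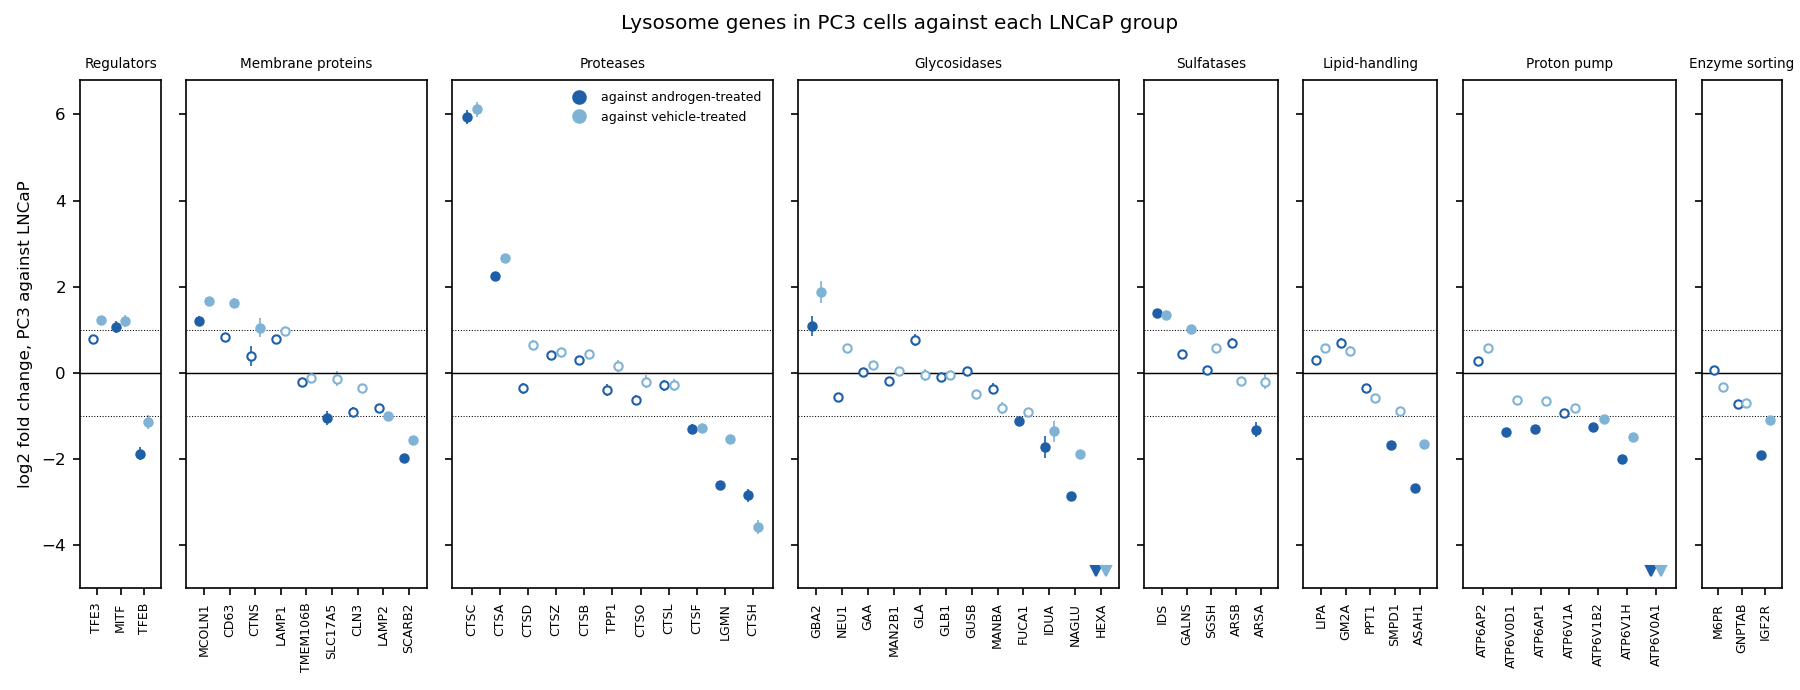
Log2 fold change of the 55 tested lysosome genes in PC3 cells against androgen-treated (dark blue) and vehicle-treated LNCaP cells (light blue), by role group, with standard errors (n = 3 libraries a group). Filled points are differentially expressed, dotted lines mark a 2-fold change, and triangles stand for HEXA and ATP6V0A1, whose values lie below the axis. CTSC had the largest log2 fold change, and 6 of 7 proton pump genes were lower in PC3 cells in both comparisons.

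The genes higher in PC3 cells in both comparisons were MITF, MCOLN1, CTSA, CTSC, GBA2 and IDS. CTSC (cathepsin C, a dipeptidyl peptidase that activates serine proteases of granules) was nearly restricted to PC3 cells, at 239, 232 and 177 CPM in PC3 cells, 3.59, 3.76 and 3.28 CPM in androgen-treated LNCaP cells and 3.57, 3.03 and 2.85 CPM in vehicle-treated LNCaP cells. No LNCaP library came near the PC3 libraries, and the log2 fold changes were 5.93 ± 0.16, adjusted p = 4.09e-08 against androgen-treated and 6.12 ± 0.17, adjusted p = 4.42e-08 against vehicle-treated cells. CTSA (cathepsin A, which also holds NEU1 in an active complex) was at 201, 197 and 239.9 CPM in PC3 cells, 46.8, 44.6 and 43.9 CPM in androgen-treated LNCaP cells and 34.6, 34.1 and 33.9 CPM in vehicle-treated LNCaP cells. Its PC3 libraries were all higher, with log2 fold changes of 2.24 ± 0.09 and 2.66 ± 0.08. MCOLN1, the calcium channel through which lysosomes signal to TFEB, was at 40.97, 39.8 and 50.7 CPM in PC3 cells, 18.3, 19.1 and 19.4 CPM in androgen-treated LNCaP cells and 13.9, 14.5 and 13.8 CPM in vehicle-treated LNCaP cells, with changes of 1.21 ± 0.10 and 1.66 ± 0.11 and no overlap.

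IDS (iduronate 2-sulfatase) was at 158, 152 and 190.3 CPM in PC3 cells, 64.4, 67.8 and 59.98 CPM in androgen-treated LNCaP cells and 63.4, 72.6 and 64.7 CPM in vehicle-treated LNCaP cells. It was higher in every PC3 library (1.38 ± 0.10 and 1.34 ± 0.09), but 75.7% of the 74-base stretches of its transcripts also lie in other annotated genes or elsewhere in the genome, so that its reads may be split between them. GBA2 was at 265, 218 and 455 CPM in PC3 cells, 151, 140.1 and 149 CPM in androgen-treated LNCaP cells and 88.9, 80.7 and 89.3 CPM in vehicle-treated LNCaP cells, with PC3 replicate 3 far above the other PC3 libraries (1.09 ± 0.24 and 1.87 ± 0.25). Without PC3 replicate 3 its change against androgen-treated cells was 0.84, and it was 0.96 and 0.99 without androgen-treated replicate 2 or 3, so that it was no longer called. MITF was at 21.7, 20.7 and 16.3 CPM in PC3 cells, 10.1, 9.25 and 8.69 CPM in androgen-treated LNCaP cells and 8.78, 9.03 and 8.10 CPM in vehicle-treated LNCaP cells. The PC3 libraries did not overlap with either LNCaP group (1.07 ± 0.15 and 1.20 ± 0.14), although the first change was under 2-fold without androgen-treated replicate 2 (0.96) or 3 (0.91).

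The regulators thus differed in direction. TFE3, at 146, 119 and 159 CPM in PC3 cells, was higher than in both LNCaP groups, by 0.78 ± 0.10 and 1.22 ± 0.10, of which the second was differentially expressed. TFEB was at 2.80, 2.18 and 3.01 CPM in PC3 cells, below every LNCaP library, with changes of -1.88 ± 0.16, adjusted p = 9.62e-06 and -1.14 ± 0.15, adjusted p = 0.000193. Without PC3 replicate 2 the latter was -0.93. TFEB, like HEXA and ATP6V0A1 below, passed the filter on low counts only through the LNCaP libraries. Per kilobase, TFE3 was the most abundant of the 3 regulators in every group, at 43.02 ± 6.17 CPM per kb in PC3 cells against 4.08 ± 0.599 for MITF and 1.14 ± 0.185 for TFEB (SD, n = 3).

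**Figure D4:**
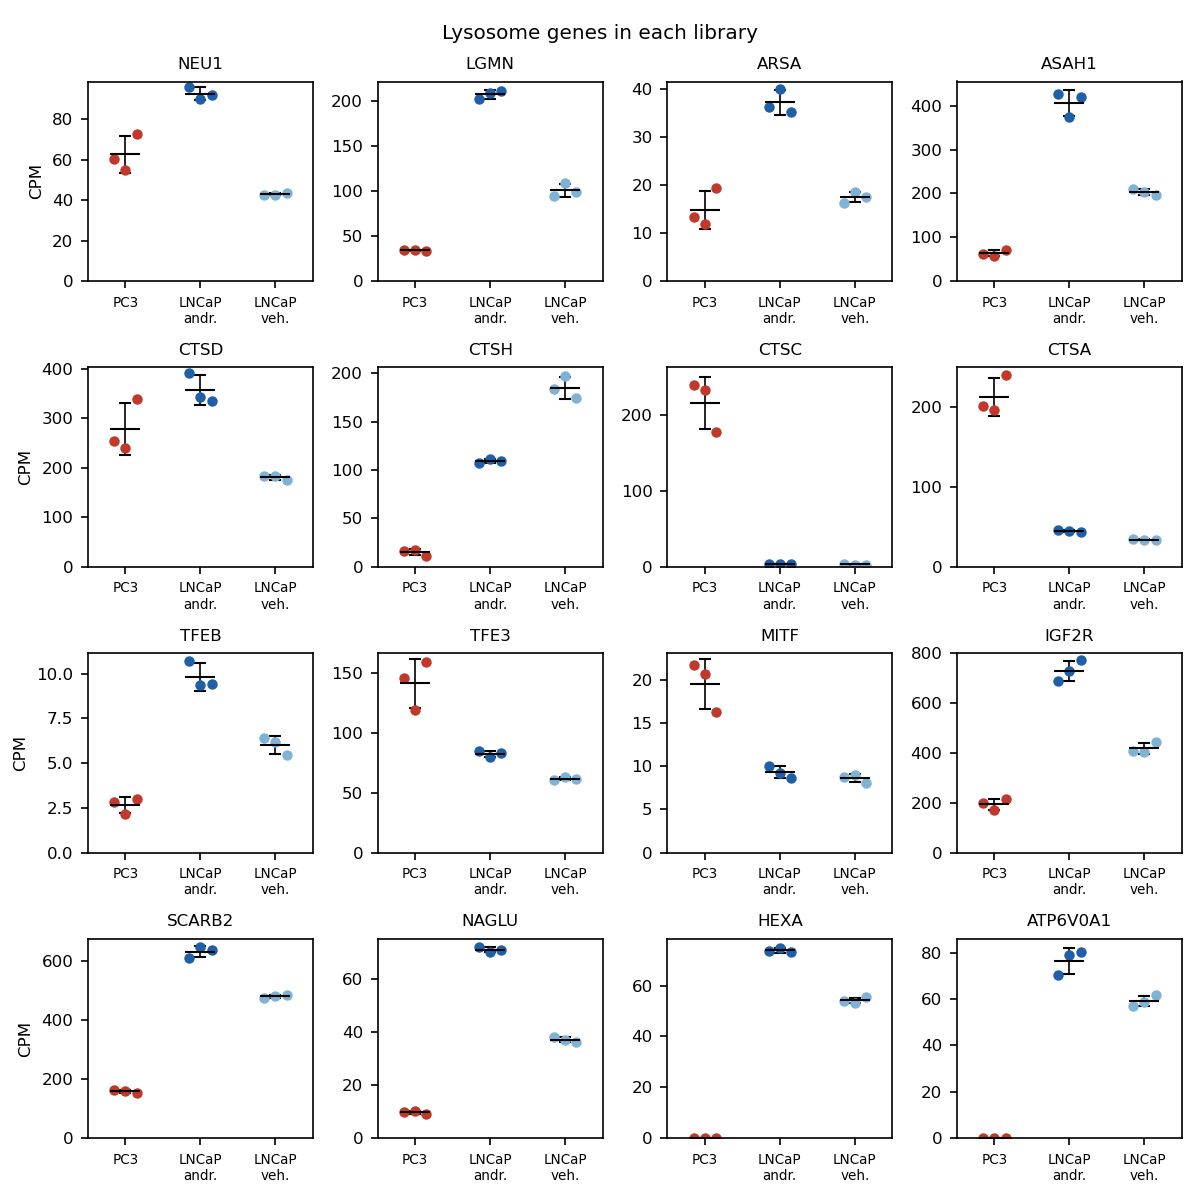
Level of 16 lysosome genes (CPM, linear axis from 0) in each library of PC3, androgen-treated and vehicle-treated LNCaP cells. Points are libraries, horizontal lines their mean and bars the SD (n = 3). NEU1, LGMN, ARSA and ASAH1 were highest with androgen, CTSC and CTSA were highest in PC3 cells, and HEXA and ATP6V0A1 were at or near 0 in PC3 cells only.

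The genes lower in PC3 cells in both comparisons were TFEB, SCARB2, CTSF, CTSH, LGMN, HEXA, NAGLU, IDUA, ASAH1, ATP6V0A1, ATP6V1B2, ATP6V1H and IGF2R. Of the proteases, CTSH was at 16.7, 17.4 and 11.5 CPM in PC3 cells, 107, 111 and 109.7 CPM in androgen-treated LNCaP cells and 184, 197 and 174 CPM in vehicle-treated LNCaP cells, the lowest levels being those of PC3 cells (-2.84 ± 0.15, adjusted p = 8.49e-07 and -3.58 ± 0.16, adjusted p = 3.66e-07). LGMN was at 34.7, 34.4 and 33.1 CPM in PC3 cells, under each LNCaP library (-2.60 ± 0.06 and -1.54 ± 0.07). CTSF (cathepsin F, a cysteine protease) was at 11.9, 10.9 and 13.4 CPM in PC3 cells, 27.9, 33.99 and 28.3 CPM in androgen-treated LNCaP cells and 28.9, 31.4 and 29.8 CPM in vehicle-treated LNCaP cells. It differed by -1.31 ± 0.12 and -1.29 ± 0.09, with nearly equal levels in both LNCaP groups. SCARB2 was at 165, 160.1 and 153 CPM in PC3 cells, 610.0, 646 and 639 CPM in androgen-treated LNCaP cells and 474, 481 and 486 CPM in vehicle-treated LNCaP cells, and its PC3 libraries formed a narrow group below the others (-1.98 ± 0.07 and -1.57 ± 0.06).

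Of the enzymes that degrade heparan sulfate, NAGLU was at 9.99, 10.1 and 9.27 CPM in PC3 cells, 72.02, 70.1 and 70.9 CPM in androgen-treated LNCaP cells and 38.1, 36.99 and 36.2 CPM in vehicle-treated LNCaP cells, and the groups followed each other without overlap (-2.86 ± 0.08, adjusted p = 4.26e-08 and -1.90 ± 0.08, adjusted p = 3.47e-07). IDUA (alpha-L-iduronidase) was at 6.63, 5.54 and 11.7 CPM in PC3 cells, 22.5, 28.6 and 27.7 CPM in androgen-treated LNCaP cells and 20.03, 19.7 and 22.5 CPM in vehicle-treated LNCaP cells. Its coefficient of variation of 41.1% among the PC3 libraries was the highest of the 52 lysosome genes with a mean over 3 CPM there, and all 3 lay below the LNCaP libraries (-1.72 ± 0.25, adjusted p = 0.00031 and -1.36 ± 0.25, adjusted p = 0.00113). In contrast, SGSH was 59.6, 59.3 and 57.8 CPM in PC3 cells. It did not pass the test against androgen-treated cells and was higher by 0.58 against vehicle-treated cells. IDS was higher in PC3 cells in both comparisons, with the limit on its reads given above. Genes of this pathway thus did not share 1 direction. ASAH1 was at 62.7, 57.7 and 70.5 CPM in PC3 cells, far below the LNCaP libraries (-2.68 ± 0.10, adjusted p = 1.16e-07 and -1.65 ± 0.08, adjusted p = 4.55e-07).

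IGF2R, the receptor described above, was at 198, 170.1 and 214 CPM in PC3 cells. All LNCaP libraries were higher (-1.91 ± 0.09 and -1.09 ± 0.09), but without PC3 replicate 2 the second change was -0.91. Of the proton pump, ATP6V1H, a regulatory subunit of the cytosolic sector, was at 26.7, 25.4 and 26.2 CPM in PC3 cells, 100.4, 104 and 107 CPM in androgen-treated LNCaP cells and 78.2, 72.05 and 74.01 CPM in vehicle-treated LNCaP cells (-1.99 ± 0.06 and -1.495 ± 0.07). ATP6V1B2, a nucleotide-binding subunit, was at 57.5, 62.7 and 56.04 CPM in PC3 cells, 142, 138 and 143 CPM in androgen-treated LNCaP cells and 126, 123 and 126 CPM in vehicle-treated LNCaP cells (-1.26 ± 0.07 and -1.07 ± 0.07). In both genes the PC3 libraries were the lowest, and without PC3 replicate 1 or 3 the ATP6V1B2 change against vehicle-treated cells was -0.96 or -0.94. ATP6AP1 and ATP6V0D1 were also lower in PC3 cells, by -1.30 ± 0.07 and -1.37 ± 0.08 against androgen-treated cells, where they were differentially expressed, and by -0.66 ± 0.07 and -0.63 ± 0.07 against vehicle-treated cells, where they were not. ATP6AP2 (the prorenin receptor) was the single pump gene that was higher in PC3 cells, by 0.28 and 0.57.

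Besides ATP6AP1 and ATP6V0D1, 4 genes were differentially lower against androgen-treated cells only. These were SLC17A5 (-1.05 ± 0.16, adjusted p = 0.000459), FUCA1 (alpha-L-fucosidase, -1.13 ± 0.08, adjusted p = 2.84e-06), ARSA (-1.32 ± 0.17, adjusted p = 0.00014) and SMPD1 (-1.67 ± 0.07, adjusted p = 2.06e-07). In PC3 cells ARSA was at 13.3, 11.99 and 19.4 CPM and SLC17A5 at 16.5, 16.3 and 25.4 CPM, levels that overlapped with those of vehicle-treated LNCaP cells. The SLC17A5 call was lost without PC3 replicate 1 (-0.82) or 2 (-0.82), and that of FUCA1 without PC3 replicate 3 (-0.98).

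Against vehicle-treated cells only, TFE3, CD63, CTNS and GALNS were differentially higher and LAMP2 lower. CD63 was at 476, 415 and 577 CPM in PC3 cells and differed by 1.62 ± 0.11, adjusted p = 3.97e-06, and LAMP2 was at 150.1, 158 and 165 CPM and differed by -1.001 ± 0.06, adjusted p = 2.12e-06. GALNS (galactosamine 6-sulfatase) differed by 1.02 ± 0.09, adjusted p = 1.96e-05 and CTNS by 1.05 ± 0.22, adjusted p = 0.00273. The last 3 calls were not stable. LAMP2 was under 2-fold without PC3 replicate 1 (-0.88), 2 (-0.91) or 3 (-0.95). GALNS was so without vehicle-treated replicate 1 (0.93), 2 (0.87) or 3 (0.95). CTNS was so without PC3 replicate 3 (0.82) or without vehicle-treated replicate 1 (0.96), 2 (0.91) or 3 (0.96), and up to 41.5% of its reads were antisense.

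CTSD and NEU1 took a middle place. CTSD was at 254, 241 and 339 CPM in PC3 cells, on average lower than with androgen, with overlapping libraries (-0.36 ± 0.13, adjusted p = 0.0355), and higher than with vehicle (0.64 ± 0.12, adjusted p = 0.00135). NEU1 was at 60.1, 55.00 and 72.8 CPM in PC3 cells, likewise lower than with androgen (-0.56 ± 0.10, adjusted p = 0.000935) and higher than with vehicle (0.57 ± 0.10, adjusted p = 0.00087). The beta-galactosidase GLB1 was at 48.2, 46.3 and 50.5 CPM in PC3 cells, 51.02, 52.4 and 51.2 CPM in androgen-treated LNCaP cells and 51.6, 52.5 and 49.00 CPM in vehicle-treated LNCaP cells and did not pass the test in any comparison. LAMP1, in contrast, was at 283, 266 and 333 CPM in PC3 cells and was higher there by 0.78 ± 0.08 and 0.97 ± 0.08.

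HEXA and ATP6V0A1 were the tested lysosome genes without reads, or nearly so, in PC3 cells. CTSS, which was not tested, had 1, 0 and 1 counts there. HEXA encodes the alpha subunit of beta-hexosaminidase A, which degrades GM2 ganglioside with the help of GM2A, and lies at chr15:72340924-72376420. It was listed with 0 counts in each of the 3 PC3 libraries, and was at 73.6, 74.7 and 73.1 CPM with androgen and 53.8, 53.3 and 55.4 CPM with vehicle. Taking 3 counts per library as the limit that a count of 0 allows, HEXA was at least 558-fold lower than in androgen-treated and at least 407-fold lower than in vehicle-treated cells. ATP6V0A1, a large subunit of the membrane sector of the pump, lies at chr17:42458844-42522582. It had 3, 4 and 0 counts in PC3 libraries, and was at 70.1, 78.8 and 80.2 CPM with androgen and 56.98, 58.9 and 61.5 CPM with vehicle. Its pooled level was 752 times higher with androgen and 648 times higher with vehicle than in PC3 cells (exact 95% intervals 365 to 1872 and 314 to 1612, counting error only). GM2A, the partner of HEXA, was at 126, 142 and 107 CPM in PC3 cells, higher than in both LNCaP groups (0.69 ± 0.11 and 0.52 ± 0.11).

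Neighbouring genes were examined after these values were seen. In the RefSeq order of protein-coding genes, ATP6V0A1 was the last of 12 consecutive genes on chromosome 17, DHX58 to ATP6V0A1 (chr17:42101411-42522579, 421.2 kb), that each had at most 10 reads in all 3 PC3 libraries together. No PC3 library held more than 4 counts of any of them. In LNCaP cells 9 of the 12 had over 3 counts in every library, among them STAT3 with 3418 to 7343 counts and RAB5C, a GTPase of early endosomes, with 3007 to 4806 counts. The next gene on this side, NAGLU, had 253, 232 and 234 counts in PC3 cells, and as given above it was itself lower there. HEXA lay in a run of 4 such genes on chromosome 15, PARP6 to TMEM202 (chr15:72241181-72408367, 167.2 kb), with 0 counts in all PC3 libraries, of which HEXA and CELF6 had over 3 counts in every LNCaP library. The genes bordering this run were PKM and ARIH1, with 62818, 58014 and 66130 and with 2062, 1812 and 1900 counts in PC3 cells. Of the 13906 genes with over 3 counts in every LNCaP library, 816 (5.87%) had at most 10 reads in the PC3 libraries together. Among the 6563 with over 500 counts in every LNCaP library, 62 (0.945%) did so. No DNA was measured, and the cause of the missing reads was not tested.

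**Figure D5:**
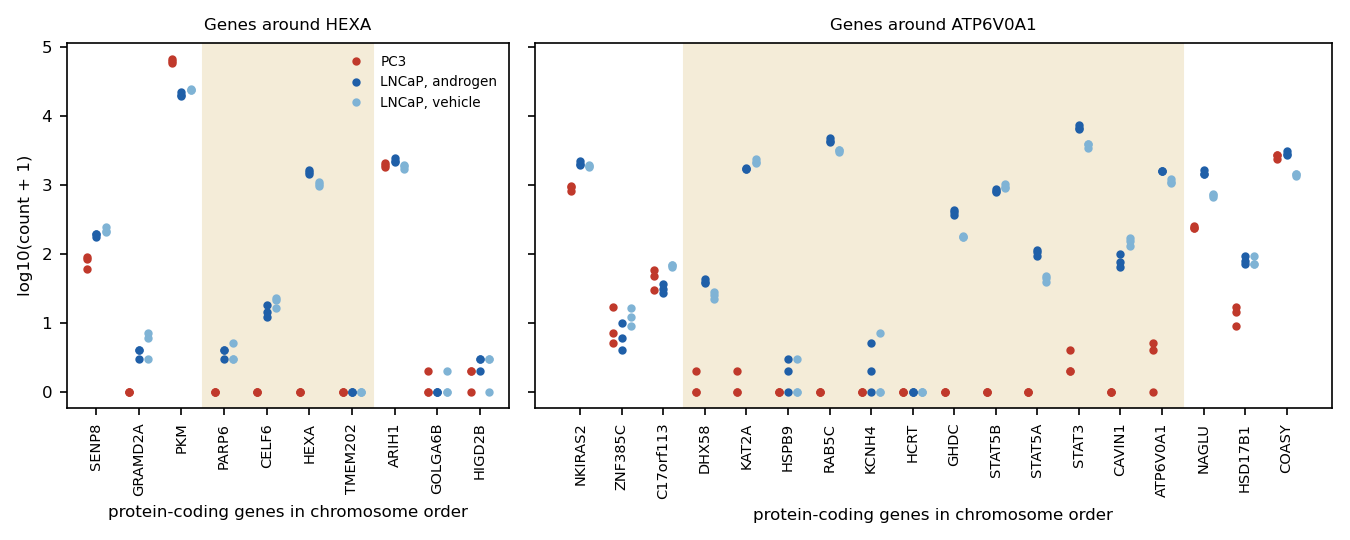
Counts of protein-coding genes around HEXA (left) and ATP6V0A1 (right) in chromosome order, as log10(count + 1), in each library of PC3 (red), androgen-treated (dark blue) and vehicle-treated LNCaP cells (light blue). The shaded genes have at most 10 PC3 reads in total, while STAT3 and RAB5C among them have 3007 or more counts in every LNCaP library.

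A further 87 genes of the lysosome in 4 lists were set beside the 57, of which 75 were tested in each comparison. With androgen 50 of the 75 rose (66.7%) and 11 fell (14.7%), with a median log2 fold change of 0.28, where 37.1% of all genes tested rose and 37.8% fell. Of 12 further tested pump genes 10 rose and 1 fell (median 0.74). The pump subunits ATP6V0B (1.04 ± 0.05, adjusted p = 4.74e-10) and ATP6V1G1 (1.02 ± 0.04, adjusted p = 1.94e-10) were differentially expressed. Of 21 further hydrolases 12 rose and 5 fell, the hyaluronidase HYAL1 changing by 3.82 ± 0.22, adjusted p = 4.37e-09 and the cysteine protease CTSV by -1.53 ± 0.08, adjusted p = 2.34e-09. Of 21 further membrane proteins 13 rose and 5 fell. Here CD68 (3.33 ± 0.17, adjusted p = 1.82e-09) and the cholesterol exporter NPC1 (2.24 ± 0.10, adjusted p = 2.63e-10) rose, and LAPTM4B fell (-1.42 ± 0.07, adjusted p = 8.12e-10). HYAL1 and CD68, at means of 0.405 and 1.86 CPM with vehicle, passed the filter on low counts only through the androgen-treated libraries. Of 21 genes of enzyme sorting and lysosome positioning 15 rose, all by less than 2-fold, and the other 6 did not pass the test.

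In PC3 cells, 29 of the 75 further genes were differentially expressed against androgen-treated (9 higher, 20 lower) and 30 against vehicle-treated cells (16 higher, 14 lower), shares of 38.7% and 40% that lay below the 46% and 43.2% of all genes tested. The further pump genes included 5 that were lower against androgen-treated cells, and 1 lower and 3 higher against vehicle-treated cells, among the latter TCIRG1 (1.61 ± 0.07, adjusted p = 2.49e-07), a paralog of ATP6V0A1 that can take its place in the pump. TCIRG1 was at 55.5 ± 1.88 CPM in PC3 cells and 18.4 ± 0.362 CPM with vehicle (SD, n = 3), and ATP6V0A2, another such paralog, differed by 1.04 ± 0.08, adjusted p = 5.36e-06. Against androgen-treated cells no further pump gene was differentially higher, and the largest log2 fold change among them was 0.76. LAMP3, a membrane protein of dendritic cells, was at 20.3 ± 6.49 CPM in PC3 cells and at 0.0464 and 0.0367 CPM in LNCaP cells with androgen and vehicle. It passed the filter on low counts only through the PC3 libraries. LITAF, which acts on late endosomes, was at 4.27 ± 0.952 CPM in PC3 cells, lower than in both LNCaP groups (-5.13 ± 0.15 and -4.61 ± 0.15). The adaptor subunits AP3S1 (2.63 ± 0.07 and 2.82 ± 0.07) and AP3M1 (1.84 ± 0.07 and 2.06 ± 0.06), which direct membrane proteins to lysosomes, were higher in PC3 cells.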

How the data were processed

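RNA was sequenced from 9 libraries (3 PC3, 3 androgen-treated LNCaP, 3 vehicle-treated LNCaP), prepared from polyA-selected RNA and read as 74-base single ends. The deposited values are counts of reads per gene, made by the authors with cutadapt, STAR on GRCh38 and removal of PCR duplicates with UMI-tools. The labels give versions 4.1, 2.7.7a and 1.1.2, the study's methods give other versions of cutadapt and STAR, and the gene annotation is not given in the sources used here. All 253944 values of the count table equal the forward-strand counts deposited per library, and 20.3% to 25.4% of reads were not counted on a gene.

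Counts were tested with edgeR 4.0.16 (R 4.3.3), TMM factors and the quasi-likelihood test, without a replicate block. The study's own model held a term for experimental batch, which was left out here because the sources do not name the batches. Genes needed more than 3 CPM in at least 3 of the 6 libraries of a comparison. All genes tested in a comparison entered the Benjamini-Hochberg adjustment of its p-values, and differential expression required an adjusted p under 0.05 and a 2-fold change. CPM levels were scaled by TMM factors over all 9 libraries, and shares of counts and pooled ratios use plain totals. Levels per kilobase use the GENCODE 44 canonical transcript. On counts simulated for each comparison, 200 of 200 changed genes were recovered for androgen (11697 genes), 199 for PC3 against androgen-treated (12541 genes; 199 of the changed genes were tested) and 200 for PC3 against vehicle-treated cells (12686 genes). Recovery of changes near or under 2-fold was not tested. All genes were simulated with the same dispersion and no outlying library, so that recovery under a wider spread was not tested either. The lysosome genes and all gene lists were chosen with earlier results of these data known. Named are the 3 regulators, each gene differentially expressed in any comparison, the highest gene per kilobase of each role, and some further genes by their log2 fold change or level. From each other list at most 5 differentially expressed genes were eligible in a comparison. Values of every library are given for genes differentially expressed with androgen or in the same direction in both PC3 comparisons. Replicate numbers come from the sample titles. Same-numbered androgen-treated and vehicle-treated libraries deviated together (correlations 0.155, 0.236 and 0.216 over 10015 genes), whereas the PC3 libraries showed no such pairing. Alternatives were DESeq2 1.42.0 and its size factors, the likelihood ratio test, other filters, a test against a 2-fold change, unstranded counts, a single fit of all libraries, the replicate block and leaving out each library. Intervals cover counting error only. A marker gene of the cell lines and a promoter motif are not reported here.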

Additional observations from a re-analysis of the deposited data

How the results depend on the processing

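The number of differentially expressed lysosome genes was defined by the 2-fold threshold. At the adjusted p alone it was 45 with androgen, 47 for PC3 against androgen-treated and 44 for PC3 against vehicle-treated LNCaP cells. A test against a fold change of 2 left 1 gene with androgen (NEU1), 22 and 16. Leaving out single libraries gave 3 to 5, 21 to 26 and 20 to 23 genes, and removing any LNCaP library left 52 genes tested in the PC3 comparisons, since fewer libraries then met the filter. With the replicate block the numbers were 4, 25 and 23. CTNS lost its call against vehicle-treated cells under the block, which changed no other call. DESeq2 and its size factors, as well as the likelihood ratio test, gave 4, 25 and 24. Without a filter on low counts there were 6, 27 and 24 genes, with at least 10 counts in every library 4, 23 and 22, with unstranded counts 4, 25 and 22 (CTNS and GALNS were lost) and with all 9 libraries in a single fit 4, 25 and 23 (GALNS was lost). No log2 fold change of a gene that passed the test changed sign under any of these settings. Of the genes that passed, 41 of 45, 39 of 47 and 33 of 44 kept their side of both thresholds under every setting that used both and in which they were tested.

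Some genes crossed 2-fold upward when a library was left out. CTSD with androgen reached 1.02 and 1.04 without androgen-treated replicate 2 or 3. Against androgen-treated cells, TFE3 (1.01) and CD63 (1.05) did so without PC3 replicate 2, CLN3 without androgen-treated replicate 2 (-1.05), and ATP6V1A without androgen-treated replicate 1 (-1.01), 2 (-1.06) or 3 (-1.004). Against vehicle-treated cells, LAMP1 did so without PC3 replicate 1 (1.09) or 2 (1.13), SMPD1 without vehicle-treated replicate 2 (-1.02) and FUCA1 without vehicle-treated replicate 1 (-1.02), 2 (-1.02) or 3 (-1.01). The cause was not tested. CTSS and ATP6V0D2 had too few counts to be tested at this depth, and the effect of depth on the other genes was not tested.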

Other observations

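Of 19 tested autophagy genes, which form and deliver the vesicles that lysosomes degrade, 16 rose and 1 fell with androgen in LNCaP cells, with a median log2 fold change of 0.47, where 37.1% of all genes tested rose and 37.8% fell. Of the 19 genes 5 were differentially expressed, against 14% of all genes tested. The phosphoinositide-binding protein WIPI1 was at 62.7, 63.5 and 65.9 CPM with androgen and 6.89, 3.85 and 5.45 CPM with vehicle (3.56 ± 0.11, adjusted p = 1.48e-11), and the autophagy receptor OPTN was at 47.9, 46.8 and 46.03 CPM with androgen and 8.73, 8.42 and 8.45 CPM with vehicle (2.46 ± 0.07, adjusted p = 3.28e-12). In both genes all androgen-treated libraries were several times higher than any vehicle-treated one. GABARAPL1 (1.23 ± 0.05, adjusted p = 2.83e-10), TECPR1 (1.22 ± 0.05, adjusted p = 1.23e-10) and MAP1LC3A (1.05 ± 0.09, adjusted p = 2.59e-07), which act in vesicle closure and fusion, were the others. Of 14 nutrient-sensing genes 11 rose and the other 3 did not pass the test. MTOR, the kinase that holds TFEB in the cytoplasm when nutrients are plentiful, was at 291, 311 and 297 CPM with androgen and 74.95, 77.6 and 82.6 CPM with vehicle (1.94 ± 0.05, adjusted p = 1.06e-12). Of 7 cathepsin inhibitor genes 3 were tested and passed the test upward. One of them, SPOCK1, passed the filter on low counts only through the androgen-treated libraries, at 0.631, 0.550 and 0.815 CPM with vehicle and 11.8, 18.95 and 15.3 CPM with androgen (4.51 ± 0.24, adjusted p = 1.94e-09).

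In PC3 cells the autophagy genes were divided. Against androgen-treated cells 3 were differentially higher and 5 lower, and against vehicle-treated cells 5 were higher and 3 lower, where 46% and 43.2% of all genes tested were differentially expressed. GABARAP, at 100.1, 90.5 and 110.1 CPM in PC3 cells, 456, 433 and 434 CPM in androgen-treated LNCaP cells and 312, 302 and 296 CPM in vehicle-treated LNCaP cells, and GABARAPL1, at 10.7, 9.38 and 14.3 CPM in PC3 cells, 92.5, 102 and 91.1 CPM in androgen-treated LNCaP cells and 41.6, 39.4 and 40.8 CPM in vehicle-treated LNCaP cells, were lower than in both LNCaP groups, while MAP1LC3B, the most used marker of autophagosomes, was higher at 191, 149 and 248 CPM in PC3 cells, 84.99, 85.3 and 83.1 CPM in androgen-treated LNCaP cells and 53.5, 55.7 and 51.03 CPM in vehicle-treated LNCaP cells. RRAGD, a GTPase that recruits the TFEB kinase to lysosomes, was at 0.592, 0.741 and 1.19 CPM in PC3 cells, and was at 34.96, 35.4 and 35.5 CPM with androgen and 21.4, 25.2 and 24.6 CPM with vehicle (-5.38 ± 0.19, adjusted p = 1.22e-07 and -4.78 ± 0.20, adjusted p = 2.93e-07). It passed the filter on low counts only through the LNCaP libraries.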
